A study of Mus musculus with 141 samples.

Results

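The cytochrome P450 genes of families 1 to 4 were taken as all protein-coding genes whose symbol begins with Cyp1, Cyp2, Cyp3 or Cyp4 followed by a letter. The rule found 81 genes among the 36558 gene IDs of the tables, 3 in family 1, 49 in family 2, 9 in family 3 and 20 in family 4, and none of their expression values was used to choose them. The rule could not read 623 IDs that have no symbol here. Expression was measured by RNA-seq in subcutaneous (inguinal) white adipose tissue (iWAT) of mice from many inbred strains of the Hybrid Mouse Diversity Panel (HMDP). The libraries come from 67 females and 74 males of 82 strains, with 1 mouse per library and 1 library per sex and strain, and both sexes are present in 59 strains. By strain name the females divide into 32 BXD, 9 AXB/BXA, 3 CXB and 2 BXH lines and 21 other inbred strains, and the males into 34, 11, 3, 3 and 23. BXD, AXB/BXA, CXB and BXH are families of recombinant inbred lines, each derived from a pair of parental strains. By its name, the line BXD24/TyJ-Cep290<rd16>/J, counted with the BXD lines and present in both sexes, carries the rd16 mutation of Cep290. No group carried a transgene or a drug treatment: all mice were fed chow until 8 weeks of age and then, for 8 weeks, an HF/HS diet (rich in fat and sucrose), and all were fasted for 4 h before collection, so no library stands for an animal fed chow throughout. The 5 adipocyte markers summed to a median of 31255 TPM (transcript abundance scaled for transcript length and library total) in females and 41395 TPM in males, from 5445 to 63720 TPM over all libraries.

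P450 enzymes are haem proteins, mostly of the endoplasmic reticulum, that insert 1 oxygen atom into a substrate with electrons passed on by P450 oxidoreductase and cytochrome b5. Families 1 to 3 are known for oxidising drugs, pollutants and steroids, and several of them also turn arachidonic acid into signalling epoxides. Family 4 enzymes mainly hydroxylate fatty acids and leukotrienes at the far end of the chain. Most of these genes are at their highest in liver, where nuclear receptors and liver transcription factors control them, and comparatively few are textbook genes of fat.

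Total estimated counts per library ran from 6269154 to 78562648 with a median of 30233245. The shallowest library, the BXD34/TyJ female, gave the lowest female value of 9 of the 15 expressed members described below. Y-linked genes went against the labelled sex in 3 libraries, the females of BXD34/TyJ and BXD69/RwwJ and the male of NZW/LacJ. Hepatocyte markers (6 genes) summed to more than 250 TPM in 10 libraries and skeletal muscle markers to more than 1000 TPM in 3, and the results they touch are also given without them.

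Of the 81 genes, 15 had a median of at least 1 TPM over all libraries and are called expressed here. Including them, 34 genes had more than 3 counts in at least 50% of the libraries, while another 34 had a median of 0 TPM. The expressed members were unevenly spread over the families, with 1 in family 1, 8 in family 2, none of 9 in family 3 and 6 in family 4. By location, none of the 15 Cyp2c genes on chromosome 19 and none of the 9 Cyp3a genes on chromosome 5 was called expressed. Of the 9 Cyp4f genes, which lie on chromosomes 17 and 8, 4 were. The call pools the sexes, so a gene high only in females can miss it. For Cyp3a57 of family 3, the female median over the 59 strains with both sexes was 5.62 TPM, and the male median 0.0614 TPM. The call therefore does not show that family 3 is silent in females. Medians just over the limit of 1 TPM belonged to Cyp2ab1 at 1.13 TPM, and just under it were Cyp4f39 at 0.940, Cyp2s1 at 0.849 and Cyp2c23 at 0.673 TPM.

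RefSeq promoter windows on GRCm38.p6, from 250 bases before to 50 bases after a gene's start, were found for 66 of the 81 genes. The letters TATAAA (searched on both strands, like every motif here) were in 39.7% of the 73 windows of these genes and in 13.6% of all 32851 windows. The letters CAAAGTCCA, a form of the site of the liver factor HNF4, were in 13.7% of the P450 windows and in 0.475% of all. The 10 genes that hold them are Cyp2c40, Cyp2c65, Cyp2c67, Cyp2c68, Cyp2c69, Cyp2c70, Cyp3a11, Cyp3a16, Cyp3a41a and Cyp3a41b. TGTTTAC, a form of the FOXA site, was in 13.7% of P450 windows against 3.65% of all, and GCGTG, the core of the aryl hydrocarbon receptor site, was in 20.5% against 32.4%. The C/EBP letters TTGCGCAA and a direct repeat of the kind that PPAR and RXR bind were in none of the 73. Below are the 150 bases before the start of the most abundant member, of the member that differs most between the sexes, of the most abundant of the liver-type members and of the only expressed member of family 1. The RefSeq start lies inside the gene model used for coordinates here (GENCODE) by 80 bases for Cyp2e1 and 110 bases for Cyp3a11, so these 2 stretches reach into it, whereas it lies 10 bases before the model for Cyp3a57 and at its start for Cyp1b1. Capitals mark TATAAA in Cyp2e1 (plus strand, chr7:140763669-140763818), CAAAGTCCA in Cyp3a11 (minus strand, chr5:145879855-145880004) and the reverse complement of GCGTG in Cyp1b1 (minus strand, chr17:79715062-79715211). The Cyp3a57 stretch (plus strand, chr5:145345119-145345268) holds none of the motifs searched.
Cyp2e1: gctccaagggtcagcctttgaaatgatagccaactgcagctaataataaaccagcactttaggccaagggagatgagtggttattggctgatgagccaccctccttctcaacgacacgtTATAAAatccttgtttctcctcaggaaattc
Cyp3a57: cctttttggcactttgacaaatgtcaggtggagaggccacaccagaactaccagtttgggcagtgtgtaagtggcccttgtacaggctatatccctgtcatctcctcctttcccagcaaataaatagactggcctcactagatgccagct
Cyp3a11: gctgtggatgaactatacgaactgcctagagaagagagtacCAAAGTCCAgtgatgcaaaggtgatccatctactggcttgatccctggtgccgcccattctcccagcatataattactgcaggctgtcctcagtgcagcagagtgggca
Cyp1b1: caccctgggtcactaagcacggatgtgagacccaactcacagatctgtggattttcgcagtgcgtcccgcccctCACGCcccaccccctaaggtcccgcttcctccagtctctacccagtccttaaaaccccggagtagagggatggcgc

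Cyp2e1, the enzyme that oxidises ethanol, acetone and other small molecules, dominated the P450 mRNA of iWAT. It lies on the plus strand of chromosome 7 (140763739 to 140774987, ENSMUSG00000025479). In females its level ran from 10.6 TPM (BXD60/RwwJ) through a median of 296 to 1272 TPM (CXB11/HiAJ), and in males from 2.15 TPM (BXD60/RwwJ) through 223 to 1508 TPM (NZB/BlNJ). It was the highest of the 81 genes in 121 libraries, Cyp4b1 in 18 and Cyp4f13 in 2. Its share of the summed TPM of all 81 genes ranged from 0.723% to 89.2% with a median of 49.8%, and that sum itself ranged from 125 to 1989 TPM. Its range was wide, with both BXD60/RwwJ mice among the low values and both CXB11/HiAJ mice among the high ones.

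The other expressed members known for foreign compounds were at lower levels. Cyp2d22, the one expressed gene of the Cyp2d cluster on chromosome 15, had a median of 28.8 TPM in females (1.87 to 59.97) and 28.04 TPM in males (10.8 to 51.01). Cyp1b1, which oxidises polycyclic aromatic compounds and oestrogens, had a median of 17.8 TPM in females (1.48 to 70.9) and 13.03 TPM in males (3.20 to 29.8). Its 2 relatives in family 1 were not expressed. Cyp2f2, known for activating naphthalene in the airway, had a median of 3.67 TPM in females (0.329 to 26.4) and 2.57 TPM in males (0.0942 to 29.3), so that single libraries differed far more than the sexes did.

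Fatty acid hydroxylases of family 4 made up the next layer. Cyp4b1 had medians of 57.2 TPM in females (2.80 to 136.98) and 63.8 TPM in males (28.6 to 145). Cyp4v3, the mouse counterpart of the gene mutated in Bietti crystalline dystrophy, had medians of 40.9 TPM in females (6.59 to 95.7) and 51.2 TPM in males (18.7 to 110). Among the leukotriene and fatty acid hydroxylases of the Cyp4f cluster, Cyp4f13 was at 29.1 TPM in females (3.85 to 51.2) and 25.8 TPM in males (11.97 to 56.97). Cyp4f16 had medians of 11.8 and 12.2 TPM and Cyp4f17 of 12.1 and 10.9 TPM in females and males. Of Cyp4f16's 31-base words, 38.4% also occur in transcripts of other genes, mostly Cyp4f37, so reads may have been divided between them. Cyp4f18, the leukotriene B4 hydroxylase of leukocytes, had medians of 4.09 and 4.22 TPM but ran from 0 to 30.4 TPM in females and from 0.0246 to 23.5 TPM in males.

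The Cyp2j cluster on chromosome 4 was represented by Cyp2j6, at medians of 11.2 TPM in females and 13.9 TPM in males, and Cyp2j9, at 6.44 and 7.85 TPM. Cyp2u1, a hydroxylase of long-chain fatty acids, was at 2.50 and 2.73 TPM. Cyp2r1, the vitamin D 25-hydroxylase, was at 1.45 TPM in females (0.0736 to 5.27) and 1.95 TPM in males (0.167 to 7.63). Cyp2ab1 had medians of 1.10 and 1.26 TPM.

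**Figure D1:**
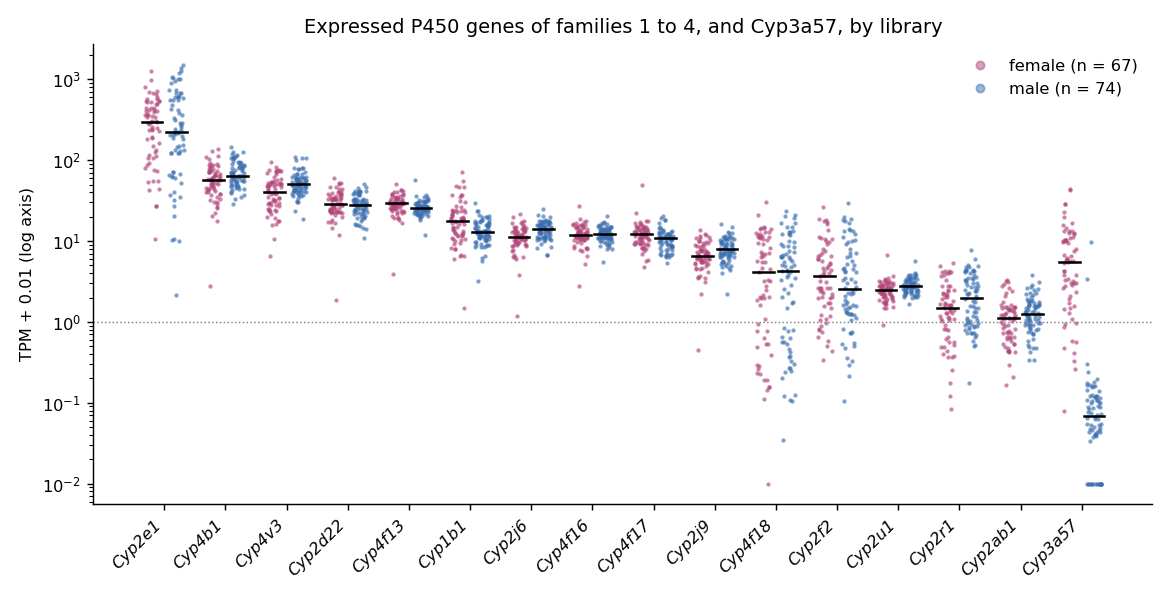
TPM plus 0.01 (log axis) of the 15 expressed members and of Cyp3a57 in each library, females on the left (n = 67) and males on the right (n = 74) of each gene, with a black bar at the median and a dotted line at 1 TPM. Cyp2e1 spans from 2.15 to 1508 TPM, Cyp4f13 from 3.85 to 56.97 TPM, and Cyp3a57 has a median of 5.44 TPM in females and 0.0591 TPM in males.

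The other 58 genes did not pass edgeR's filter on low counts in the comparison of the sexes and were not tested there. Of these, 57 had some TPM in at least 1 library, and 3 never exceeded 3 counts in any library: Cyp2d11, Cyp4a30b and Cyp2w1, which is listed at 0 throughout. Their summed level was 21.4 to 417 TPM (median 99.95) in the 10 libraries whose hepatocyte markers summed to over 250 TPM, and 1.04 to 50.3 TPM (median 3.51) in the others. The groups overlap at their edges. Moreover, 40 of the 57 had their highest value in 1 of those 10 libraries, and the share of all genes that did was not computed. These 10 were the males of MA/MyJ, AXB5/PgnJ, BXD19/TyJ, BXA8/PgnJ, BXD36/TyJ and BXD45/RwwJ and the females of BXA2/PgnJ, BXA8/PgnJ, BXD66/RwwJ and NZW/LacJ, with marker sums from 256 to 2812 TPM against 3.91 to 174 TPM elsewhere.

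Cyp3a11, the main Cyp3a enzyme of mouse liver, reached 60.2 TPM in the MA/MyJ male and 58.6 TPM in the AXB5/PgnJ male. Its median was 14.7 TPM in the 10 libraries and 0.0967 TPM in the others, where the highest value was 9.02 TPM. Cyp2c29, another abundant liver enzyme, showed the same order, with a median of 7.74 TPM against 0.0355 TPM. Cyp2a5, a coumarin hydroxylase, was highest at 43.1 TPM in the BXA2/PgnJ female and had a median of 3.09 TPM in the 10 libraries and 0 in the others. The female-type liver gene Cyp3a41a peaked in the same BXA2/PgnJ female at 30.9 TPM, although 99.9% of its 31-base words also occur in other genes, mainly Cyp3a41b. Cyp2d9 and Cyp4a12a, known as male-type liver genes, peaked in the AXB5/PgnJ male at 39.9 and 13.95 TPM. Cyp1a2, the caffeine-oxidising enzyme of liver, also peaked there, at 25.9 TPM. Of the 10 genes whose promoter holds the HNF4 letters, 9 had their highest library among the 10, and of 55 other members with a promoter window and any TPM, 26 did. Cyp2c40, Cyp2c67, Cyp2c68, Cyp2c69, Cyp3a41a and Cyp3a41b share most of their 31-base words with other genes, so reads may have been divided among them. Their peaks are therefore not separate observations, and these counts cannot show whether the letters go with the peaks. Whether liver tissue was carried over was not tested, and the sources used here do not say how depots were dissected.

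**Figure D2:**
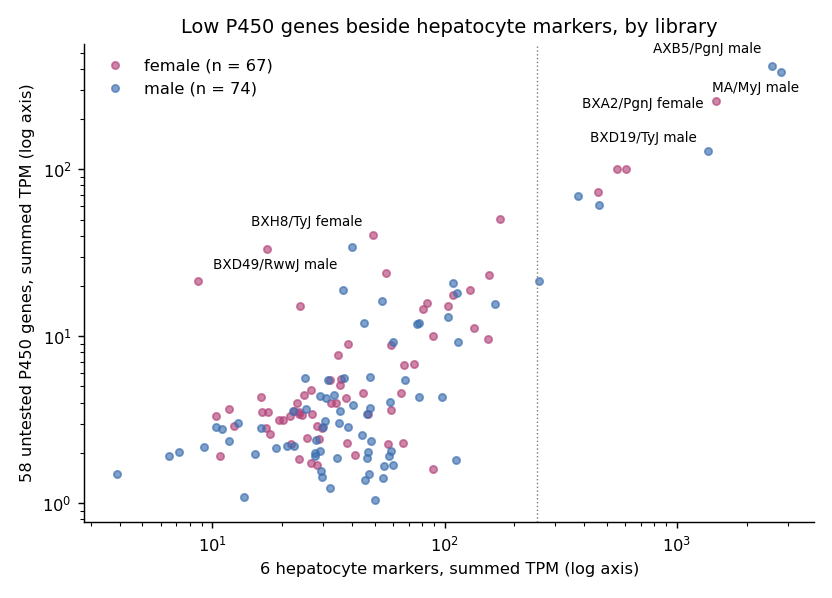
Summed TPM of the 58 untested P450 genes against the summed TPM of 6 hepatocyte markers in each library (both axes log), females and males in different colours, with a dotted line at 250 TPM. The AXB5/PgnJ and MA/MyJ males and the BXA2/PgnJ female lie at the upper right, while the labelled BXH8/TyJ female and BXD49/RwwJ male stand high at low marker sums.

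Of the 15 expressed members, 11 had a higher median over the marker limit than under it in both sexes. The ranges overlapped for all 15. The share of all genes with such medians was not computed, so the count does not set the P450 genes apart. Cyp4v3 had medians of 70.7 against 39.2 TPM in females and 75.3 against 48.8 TPM in males. Cyp2r1 was at 3.14 against 1.43 TPM and 3.10 against 1.87 TPM, and Cyp2f2 at 5.33 against 3.16 TPM and 12.5 against 2.35 TPM. The medians of Cyp2e1, Cyp4f13, Cyp1b1 and Cyp4f18 did not point the same way in both sexes. Cyp2e1 had a median of 195 TPM (88.3 to 260) in the 4 females over the marker limit and 304 TPM in the other 63. In the 6 males over it the median was 596 TPM (122.2 to 1253), against 221 TPM in the other 68. For Cyp2c70, the enzyme that makes muricholic bile acids in mice, the 4 females were at 2.10 to 11.7 TPM against 0 to 2.96 TPM, and the 6 males at 2.01 to 16.4 TPM against 0.0841 to 2.72 TPM. Leaving out the 12 strains with hepatocyte or muscle markers over their limits left the number of expressed genes at 15.

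Cyp1a1, the classical target of the aryl hydrocarbon receptor, was different from the rest of the low genes. Its median was 0.0849 TPM, and 5 libraries exceeded 10 TPM: the BXH8/TyJ female at 36.4, the BXD49/RwwJ male at 32.1, the BXD71/RwwJ female at 29.1, the BXD48/RwwJ female at 15.2 and the BXD27/TyJ female at 10.5 TPM. The next library had 1.93 TPM. None of the 5 was among the libraries with hepatocyte markers. In the 4 strains with a library of the other sex, that library was at 0.162, 0.620, 0.0575 and 0.0542 TPM, so the high level was seen in 1 mouse of each strain. Other target genes of the receptor were not high throughout. Ahrr ranked 2nd and 3rd of 67 females in BXD71/RwwJ and BXD48/RwwJ but 24th in BXH8/TyJ and 32nd in BXD27/TyJ. In these females, in that order, Cyp1b1 ranked 5th, 16th, 8th and 28th. Tiparp ranked 19th, 34th, 30th and 60th, and Nqo1 13th, 6th, 34th and 55th. In the BXD49/RwwJ male Nqo1 ranked 2nd of 74 males, Tiparp 12th, Cyp1b1 21st and Ahrr 48th. These libraries were picked for their Cyp1a1 level, and no test applies.

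The comparison of the sexes used the 59 strains with both, with strain as a term, so that each female is set against the male of her strain. Of 23 members tested, 5 were higher and 10 lower in females at an adjusted p under 0.05 (edgeR's quasi-likelihood F test, p adjusted by Benjamini-Hochberg over 16765 genes). Over all genes 58.1% passed, 28.4% higher and 29.8% lower in females, so passing the test was common. The median log2FC (female minus male) was -0.03 over the 23 members and 0.01 over all genes. In bulk tissue, fewer cells of a type and less RNA per cell cannot be told apart.

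Cyp3a57, a gene of the Cyp3a cluster on chromosome 5, was the member with the largest sex difference. Over the 59 strains it averaged 8.48 ± 9.34 TPM (SD) in females and 0.287 ± 1.32 TPM in males, and it was higher in the female of 58 strains. Its log2FC was 6.17 ± 0.36 (SE; edgeR adjusted p = 7.86e-23). It had more than 3 counts in 66 of 67 females but in 19 of 74 males, so it passed the filter through the females, and with most males at or under that floor the size of the fold is uncertain. The exception was PL/J, at 0.551 TPM in the female and 3.34 TPM in the male. Over all libraries the female values ran from 0.0691 TPM (BXD69/RwwJ) through a median of 5.44 to 43.7 TPM (I/LnJ), and C57BL/6J reached 42.7 TPM. In males the median was 0.0591 TPM, 15 libraries were at 0, and the highest were NZW/LacJ at 9.68 TPM and PL/J at 3.34 TPM. Transcripts of Cyp3a57 share 23.1% of their 31-base words with other genes, mostly Cyp3a59.

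Markers of mammary epithelium, a tissue that grows within this depot in females, moved with Cyp3a57. The 9 markers were all higher in females, and they summed to a median of 582 TPM in females and 3.33 TPM in males. The marker sum was 554 TPM in the NZW/LacJ male and 285 TPM in the PL/J male, the 2 males with the highest Cyp3a57. Among the 3 females with the lowest Cyp3a57, it was 1.70 TPM in BXD69/RwwJ and 24.3 TPM in BXD34/TyJ (Cyp3a57 at 0.316 TPM), but 237 TPM in AXB12/PgnJ (Cyp3a57 at 0.253 TPM). The other 72 males reached 0.290 TPM (BXD15/TyJ), and 65 of the 67 females lay above that level. The NZW/LacJ male and the BXD69/RwwJ and BXD34/TyJ females are the 3 libraries whose Y-linked genes go against the label. Their values therefore do not separate the markers from sex. Without these 3 libraries, 40 of 65 females lay above the highest male, PL/J. Within females, Cyp3a57 correlated with the marker score with r = 0.52 and rho = 0.37 (n = 67, permutation p = 1e-05 and 0.00211). That r fell to 0.36 without the 2 libraries farthest from the median score. With the marker score as a covariate the log2FC of Cyp3a57 was 0.95, and of all genes 8 were called at that setting, where sex and score largely coincide. How much of the difference goes with mammary tissue cannot be told apart from sex here.

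Other members higher in females changed far less. Cyp2s1 averaged 1.35 ± 0.895 TPM in females and 0.891 ± 0.675 TPM in males (log2FC 0.70 ± 0.17, edgeR adjusted p = 0.000255), and Cyp4x1 0.310 ± 0.124 and 0.224 ± 0.111 TPM (0.43 ± 0.10, 0.000126). Cyp1b1 averaged 20.8 ± 12.97 and 13.4 ± 4.603 TPM and was higher in the female of 42 strains (log2FC 0.41 ± 0.09, edgeR adjusted p = 5.76e-05). Cyp4f13 averaged 30.2 ± 6.95 and 26.7 ± 5.95 TPM, a small difference (0.07 ± 0.03, 0.0174) that did not pass without the strain term. In females Cyp1b1 also correlated with the mammary score (r = 0.55, rho = 0.60, permutation p = 1e-05 for both, the smallest that 100000 permutations can give), and r was 0.66 without the 2 farthest libraries. In males the same r was 0.03 (permutation p = 0.794).

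Among the members lower in females, Cyp2b10, the standard target of the receptor CAR, had the largest difference. It averaged 0.275 ± 0.353 TPM in females and 0.585 ± 0.693 TPM in males and was higher in the male of 44 strains (log2FC -1.19 ± 0.27, edgeR adjusted p = 0.000120). Cyp2c70 averaged 0.967 ± 1.65 and 1.399 ± 2.46 TPM (-0.82 ± 0.26), and Cyp4f39, the counterpart of a human skin-barrier hydroxylase, 0.848 ± 0.550 and 1.24 ± 0.7105 TPM (-0.77 ± 0.16). Cyp2r1 averaged 1.65 ± 1.24 TPM in females and 2.10 ± 1.497 TPM in males (-0.50 ± 0.13, edgeR adjusted p = 0.000794). These 4 are scarce transcripts in iWAT.

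Several of the more abundant fatty acid enzymes were lower in females, whereas Cyp4f13 was higher and Cyp4f16 and Cyp4f17 did not pass. Cyp4v3 averaged 41.8 ± 19.1 TPM in females and 51.4 ± 15.5 TPM in males (log2FC -0.46 ± 0.09, edgeR adjusted p = 1.87e-05), and Cyp4b1 58.1 ± 24.9 and 71.3 ± 25.4 TPM (-0.40 ± 0.09, 8.75e-05). Both expressed Cyp2j genes also passed, Cyp2j6 at 11.4 ± 3.09 and 13.7 ± 2.97 TPM (-0.35 ± 0.07) and Cyp2j9 at 6.89 ± 2.34 and 7.94 ± 2.23 TPM (-0.29 ± 0.07). Cyp2u1 (-0.30 ± 0.08) and Cyp2ab1 (-0.29 ± 0.10) completed the group. Cyp2ab1 did not pass without the strains with hepatocyte or muscle markers (-0.22, edgeR adjusted p = 0.0809), the only one of the 15 calls lost there, nor on either log2(TPM) scale, with library totals, with the lymphocyte score (limma-voom) or without the strain term. Cyp2u1 was at 0.0024 (edgeR adjusted p = 0.989) with all libraries and no strain term. The 8 members that did not pass include the most abundant: Cyp2e1 averaged 339 ± 237 TPM in females and 354 ± 379 TPM in males, was higher in the female of 35 strains, and had a log2FC of 0.30 ± 0.23 (edgeR adjusted p = 0.265). Cyp2e1 passed with limma-voom (0.64, adjusted p = 0.0164).

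The adipocyte marker score moved with many of these genes within each sex, and the 5 adipocyte markers were themselves lower in females (median log2FC -0.61). Cyp2j6 correlated with that score with r = 0.82 and rho = 0.85 in females and r = 0.80 and rho = 0.71 in males, and Cyp4v3 with r = 0.79 and rho = 0.83 in females and r = 0.69 and rho = 0.70 in males. The direction was opposite for Cyp2s1, with r = -0.79 and rho = -0.79 in females and r = -0.73 and rho = -0.72 in males. The permutation p was 1e-05, the smallest possible, for each of these. For r it was 4.84e-05 after Benjamini-Hochberg adjustment over 184 relations. These are the relations of 23 members with the adipocyte, mammary, endothelial and macrophage scores in each sex, and 94 of them passed for both r and rho. The share of all genes that would pass was not computed, so this count does not set the P450 genes apart. Without the 2 farthest libraries r remained 0.78 and 0.76 for Cyp2j6, 0.87 and 0.63 for Cyp4v3 and -0.77 and -0.71 for Cyp2s1 in females and males. Cyp2e1 had r = 0.01 and rho = 0.01 in females (permutation p = 0.943 and 0.955). In males it had r = 0.22 and rho = 0.32 (permutation p = 0.0553 and 0.00538), and r = 0.31 without the 2 farthest libraries. Markers of other cells moved as well: the 4 endothelial markers (median log2FC -0.45) and the 5 macrophage markers (-0.73) were all lower in females. Cyp4b1 went with the endothelial score (r = 0.83 and rho = 0.80 in females, r = 0.59 and rho = 0.59 in males) about as closely as with the adipocyte score (r = 0.77 and rho = 0.83, r = 0.60 and rho = 0.58). Cyp2j6 did so too in females (r = 0.81 and rho = 0.80) and less closely in males (r = 0.62 and rho = 0.60). The permutation p was 1e-05 for each of these, and without the 2 farthest libraries the endothelial r was 0.78 and 0.52 for Cyp4b1 and 0.77 and 0.54 for Cyp2j6. Cyp2e1 went against the macrophage score, with r = -0.52 and rho = -0.49 in females (permutation p = 1e-05 and 2e-05). In males it had r = -0.39 and rho = -0.41 with that score (permutation p = 0.00072 and 0.00037). The part of endothelial and macrophage markers in the sex difference was not tested.

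With the adipocyte score as a covariate, 8 members were called higher and 1 lower in females. Of all 16765 genes, 8285 were called at that setting, 50.2% of them higher in females. Of the 15 original calls, 3 kept their direction and passed: Cyp3a57 (5.86), Cyp4x1 and Cyp4f13. The 10 members lower in females were all among the 12 that did not pass there, and 6 that had not passed before were called, Cyp2e1, Cyp2d22, Cyp2c23, Cyp4f14, Cyp4f17 and, lower, Cyp4f18 (-1.23).

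**Figure D3:**
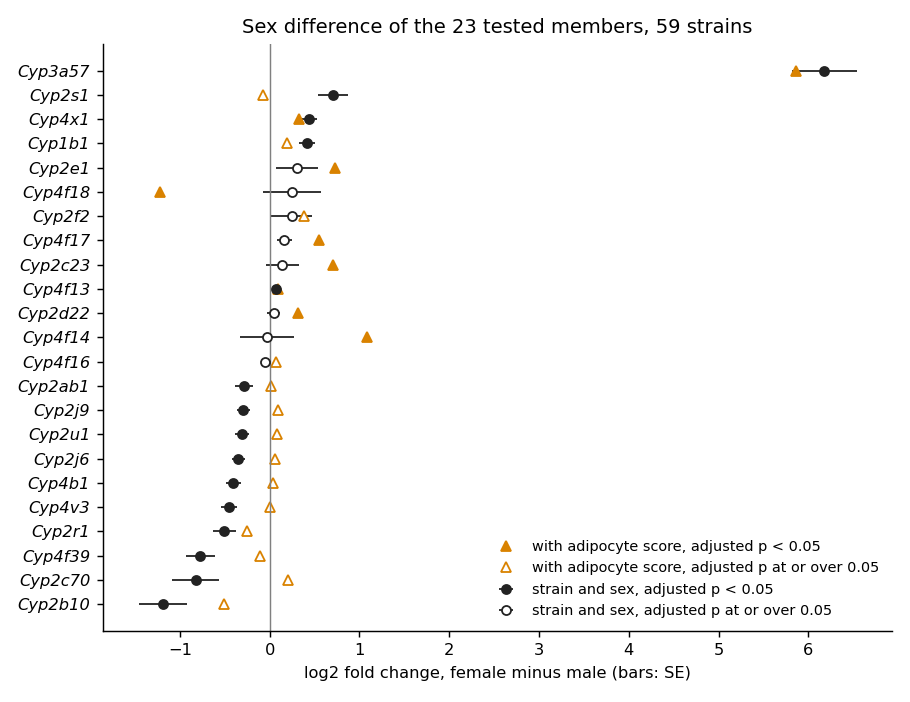
Log2FC, female minus male, of the 23 tested members over 59 strains, with the strain term (circles, bars show the SE) and with the adipocyte marker score added (triangles), filled where the adjusted p is under 0.05. Cyp3a57 stands far to the right at both settings, and most of the members lower in females move toward 0 with the score.

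Lymphocyte markers formed 2 clusters of libraries, and Cyp4f18 followed them. The 5 markers exceeded 100 TPM in 32 females and 30 males. Cyp4f18 had a median of 10.95 TPM (3.23 to 30.4) in those females and 0.769 TPM (0 to 9.58) in the other 35. In males the medians were 9.76 TPM (2.53 to 23.5) and 0.775 TPM (0.0246 to 8.59). The ranges overlap, and the order is the same in both sexes. Cyp2s1 was also higher on the lymphocyte-rich side, at medians of 1.86 against 0.661 TPM in females and 1.39 against 0.423 TPM in males. Cyp2j6 went the other way, at 10.1 against 13.2 TPM and 11.3 against 15.9 TPM. The lymphocyte markers themselves did not pass between the sexes (0 of 5), and inguinal fat is known to hold a lymph node, whose inclusion was not tested.

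**Figure D4:**
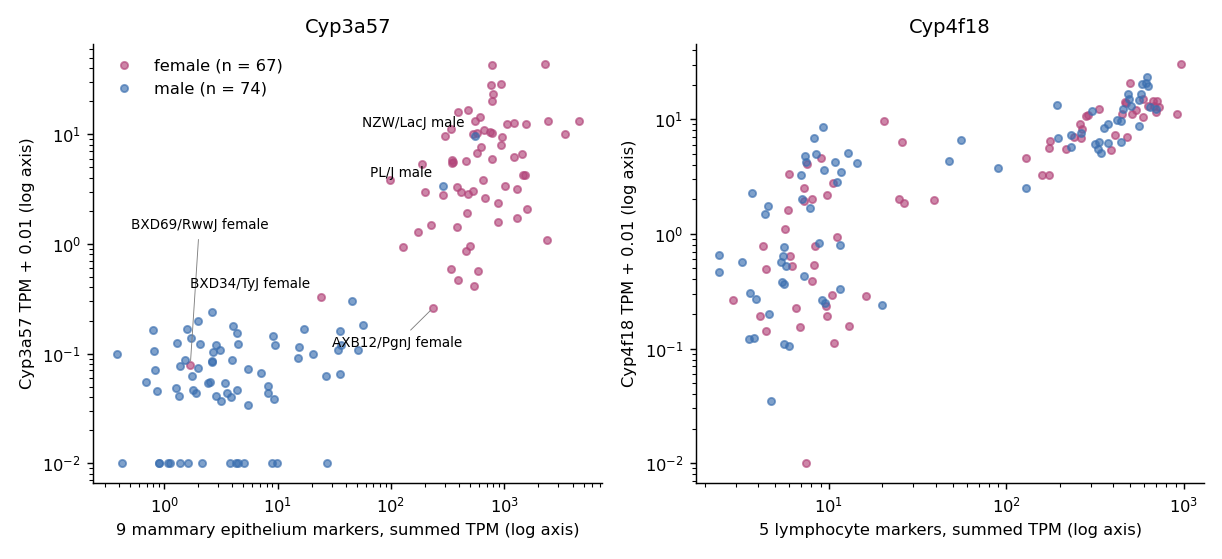
Left, Cyp3a57 against the summed TPM of 9 mammary epithelium markers, and right, Cyp4f18 against that of 5 lymphocyte markers, 1 point per library (67 females, 74 males), with 0.01 TPM added to the P450 gene and all axes on a log scale. The NZW/LacJ and PL/J males lie among the females on the left. Y-linked genes go against the label in the NZW/LacJ male and in the BXD69/RwwJ and BXD34/TyJ females. On the right, the libraries over 100 TPM of lymphocyte markers hold Cyp4f18 values from 2.53 to 30.4 TPM.

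Whether the strains differ was tested jointly over the 59 strains, with the female and the male of a strain as its 2 samples after the sex difference is taken out. Of the 23 members, 19 passed, where 71.2% of all 16765 genes did, and the median F of 1.90 over the members was close to the 1.92 over all genes. Cyp2ab1, Cyp4x1, Cyp2j9 and Cyp2j6 did not pass. Both values lie near those of all genes, so the test does not set the P450 genes apart.

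Cyp4f13 had the largest F, 5.61 (edgeR adjusted p = 3.96e-09). I/LnJ stood out with 51.2 TPM in the female and 56.97 TPM in the male, the highest value of each sex. Cyp2r1 followed with an F of 4.46 (edgeR adjusted p = 2.82e-07) and a Spearman's rho of 0.68 between females and males over the 59 strains. NZB/BlNJ was at its low end (0.510 TPM in the female, 0.167 TPM in the male) and BXD44/RwwJ at its high end (4.07 and 7.63 TPM). The lowest and highest strains named here and below were picked by the mean log2 CPM of their 2 mice. Likeness of those 2 mice therefore follows in part from the choice. BALB/cJ was low in both sexes (0.555 and 0.725 TPM), whereas A/J was split (0.425 and 3.60 TPM).

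Cyp2e1 and Cyp2f2 had the widest strain range among the expressed members other than Cyp4f18. For Cyp2e1 the F was 2.99 (edgeR adjusted p = 0.000121) and the SD of the strain means 1.60 on the log2 CPM scale, against 1.24 within strains after sex. BXD60/RwwJ was low in both sexes (10.6 and 2.15 TPM), as was I/LnJ (26.7 and 27.3 TPM), and CXB11/HiAJ was high in both (1272 and 1385 TPM). DBA/2J and C3H/HeJ show the spread within a strain, at 183 and 284 TPM in the female and 10.3 and 34.6 TPM in the male. Cyp2f2 had an F of 3.17 (edgeR adjusted p = 5.47e-05). CBA/J was its lowest strain (0.578 and 0.0942 TPM) and CXB11/HiAJ its highest (26.4 and 29.3 TPM). Of 3 related lines, AXB19/PgnJ (17.3 and 18.1 TPM) and AXB19a/PgnJ (17.5 and 17.5 TPM) had nearly equal values, and AXB19b/PgnJ was lower (4.67 and 9.07 TPM).

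**Figure D5:**
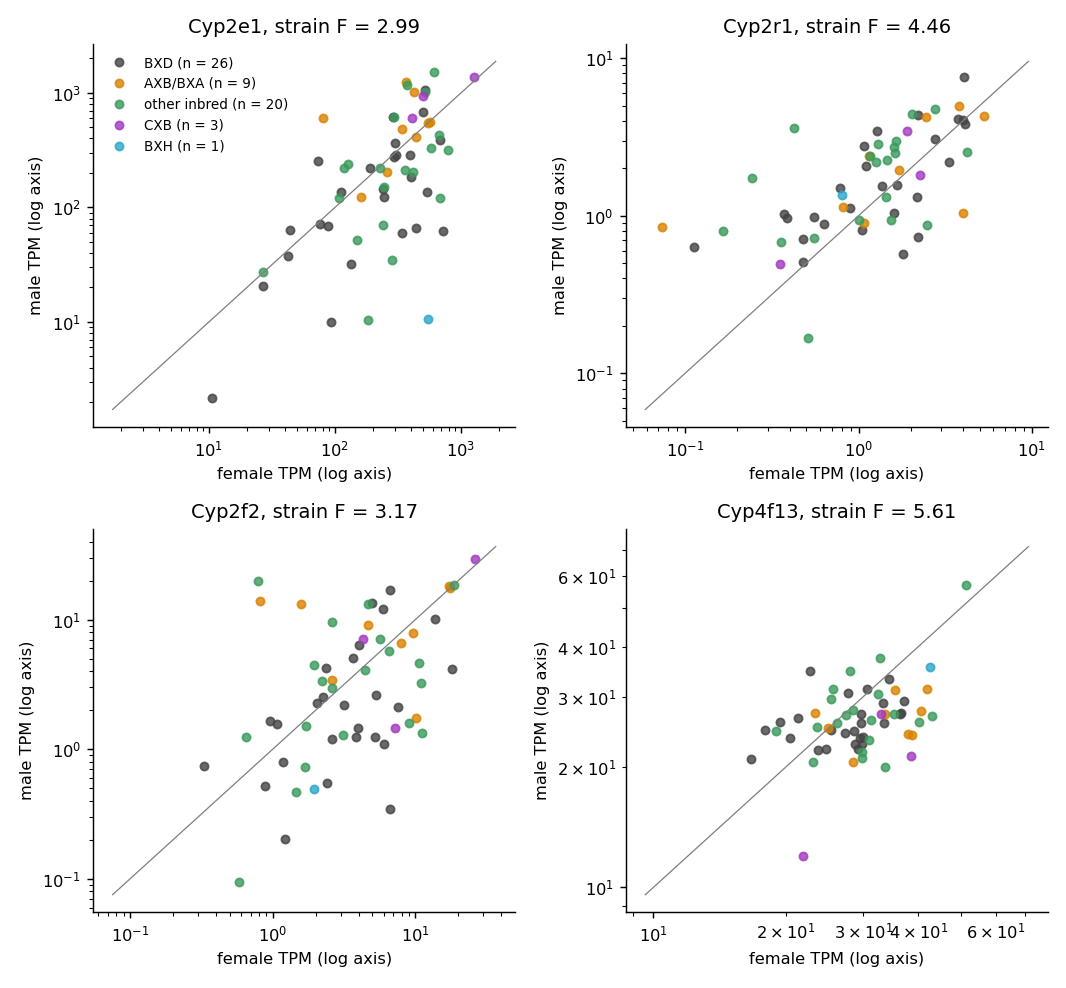
Male against female TPM (log axes) of Cyp2e1, Cyp2r1, Cyp2f2 and Cyp4f13 in the 59 strains with both sexes, coloured by strain family, with a line at equal values and the F of the strain test above each panel. Cyp2r1 has the highest rho between the sexes of the 4 genes (0.68), and for Cyp4f13 the I/LnJ point lies apart at 51.2 and 56.97 TPM.

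Cyp4f18 had the largest SD of strain means, 1.74 on the log2 CPM scale, but 1.73 within strains and an F of 1.89 (edgeR adjusted p = 0.0149). 129X1/SvJ was low (0.254 and 0.111 TPM) and BXH8/TyJ high (13.9 and 23.5 TPM). With limma-voom it did not pass either without (adjusted p = 0.369) or with (0.405) the lymphocyte score. The remaining members with the largest SD passed from low levels. Cyp2c70 (F = 2.85) was at 11.7 TPM in the BXA2/PgnJ female but 0.706 TPM in the male of that strain, and Cyp4f14, a leukotriene hydroxylase (F = 2.09), at 8.04 TPM in the AXB5/PgnJ male but 0.382 TPM in the female. Both peaks are in libraries with hepatocyte markers, and with the hepatocyte score as a covariate Cyp4f14 did not pass (edgeR adjusted p = 0.210). Cyp2b10 (F = 2.79) was highest in CXB11/HiAJ at 1.11 and 1.88 TPM. Cyp3a57 (F = 2.998) had a Spearman's rho of -0.23 between the sexes over 59 strains. Only 19 of 74 males had more than 3 counts of it, and 15 were at 0. The order of the males is therefore mostly near the floor, and this rho cannot show whether strains rank differently by sex. Cyp3a57 did not pass the strain test on log2(TPM + 1) or log2(TPM + 0.1) with limma (adjusted p = 0.563 and 0.785).

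Strain families were compared within each sex between BXD, AXB/BXA and other inbred strains, the CXB and BXH lines being too few for the test. In females 13 of 47 members tested passed, where 12% of 18281 genes did, and in males 1 of 37, where 7.09% of 17631 did. None of the 15 expressed members passed in either sex. Cyp2e1 had medians of 216 TPM in BXD, 367 TPM in AXB/BXA and 296 TPM in other inbred females, and 207, 484 and 220 TPM in males (edgeR adjusted p = 0.594 and 0.6504). Cyp2f2 had medians of 2.88, 7.93 and 3.09 TPM in females and 2.23, 7.94 and 2.98 TPM in males (edgeR adjusted p = 0.386 and 0.274). Outside the test, Cyp2e1 was at 410 to 1272 TPM in the 3 CXB females and 609 to 1385 TPM in the 3 CXB males.

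Members that passed in females were Cyp1a1, Cyp2a4, Cyp2a5, Cyp2b9, Cyp2d10, Cyp2d26, Cyp3a13, Cyp3a25, Cyp3a41a, Cyp3a44, Cyp4a10, Cyp4a14 and Cyp4x1. Their medians were at most 0.310 TPM in each of the 3 families, and 9 of the 13 had their highest value of these families in the BXA2/PgnJ female. Cyp2a5 had a median of 0.0966 TPM in BXD, 0.177 TPM in AXB/BXA and 0 in other inbred females, with a maximum of 43.1 TPM in BXA2/PgnJ, a library with hepatocyte markers. Cyp1a1 had medians of 0.127, 0.0648 and 0.104 TPM, with a maximum of 29.1 TPM in BXD71/RwwJ (edgeR adjusted p = 0.00198). The top value of Cyp4x1 was 4.93 TPM in the BXD34/TyJ female, the shallowest library, whose Y-linked genes go against its label. Without strains with hepatocyte or muscle markers 3 passed, Cyp1a1, Cyp3a13 and Cyp4x1, and without the libraries whose Y-linked genes go against the label 8 did. With limma-voom or limma on log2(TPM) none passed, with 7 of 47 under an unadjusted p of 0.05 for limma-voom. Cyp4a10, a fatty acid hydroxylase induced through PPARα in liver, was the only member past the threshold in both sexes (edgeR adjusted p = 0.0380 and 0.0394), where 3.13% of 17529 genes were. Its medians were 0.249, 0.283 and 0.205 TPM in females and 0.0464, 0.0848 and 0.0513 TPM in males, with maxima of 5.72 TPM in the BXA2/PgnJ female and 19.3 TPM in the AXB5/PgnJ male.

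The sex difference itself was compared between the 26 BXD strains and the 33 others. None of the 23 members passed (edgeR; 0.00% of 16765 genes did), with 1, Cyp2ab1, under an unadjusted p of 0.05. With limma-voom 0 were under it. For Cyp3a57 the difference between the 2 sets was 0.04 ± 1.15 on the log2 scale, and for Cyp2e1 0.58 ± 0.46. These standard errors leave room for sizeable differences.

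Genes that work with P450 enzymes were taken from lists. Of 8 electron donors and partners, 7 were lower in females and 1, Pgrmc1, did not pass, and all 8 were expressed. Por, which passes electrons to every microsomal P450, had medians of 129 TPM in females and 187 TPM in males (log2FC -0.52 ± 0.08, edgeR adjusted p = 1.55e-07), and Alas1, the first enzyme of haem synthesis, 108.2 and 184 TPM (-0.75 ± 0.09, 6.51e-11). Among 11 tested receptors and factors that control P450 genes, 2 were higher, 7 lower and 2 did not pass. Ahr, the sensor of aromatic pollutants, was higher in females at medians of 6.21 against 4.11 TPM (0.63 ± 0.08, edgeR adjusted p = 1.74e-09), and Rxra lower (-0.33 ± 0.05). Of the receptors that drive the liver genes, Nr1i2 and Hnf4a were not tested, at medians of 0.0185 and 0.0245 TPM, and Nr1i3 (CAR) was at 0.152 TPM with 6.36 TPM in its highest library, the AXB5/PgnJ male. Of 14 tested phase II and epoxide enzymes, 1 was higher, 7 lower and 6 did not pass.

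Likeness among the 23 tested members was measured by Spearman's rho within each sex, and 5 of 253 pairs reached 0.6 in both. They were Cyp2j9 with Cyp2j6 (0.76 over 67 females, 0.82 over 74 males), Cyp2j6 with Cyp4v3 (0.71 and 0.70), Cyp4f18 with Cyp2s1 (0.67 and 0.72), Cyp2j9 with Cyp4v3 (0.63 and 0.68) and Cyp4f16 with Cyp2j6 (0.66 and 0.61). Values of a pair come from the same libraries and share their depth and cell makeup. All but 1 of the pairs link genes that went with adipocyte markers, and the remaining pair are the members that were higher on the lymphocyte-rich side. The scores do not separate these sets. Cyp2j6, Cyp2j9, Cyp4v3 and Cyp4f16 went against the lymphocyte score in both sexes, Cyp2j6 with rho = -0.73 in each. Cyp4f18 and Cyp2s1 went against the adipocyte score, with rho = -0.60 and -0.79 in females and -0.68 and -0.72 in males.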

How the data were processed

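iWAT RNA was extracted with Qiagen RNeasy 96 and sequenced as stranded paired-end KAPA mRNA libraries. Reads were assigned to mm10 (GRCm38) transcripts by the authors with kallisto 0.46.1, and tximport gave gene-level values. The deposited estimated counts are raw, with 30.3% of entries fractional because kallisto divides reads among matching transcripts. TPM values, also from the authors, correct for transcript length and library total and so hold no depth. Of 36558 gene IDs, 35935 were paired with symbols through GENCODE M21, and coordinates are from that annotation of GRCm38.

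Estimated counts were rounded and filtered with filterByExpr, scaled by TMM and tested with edgeR 4.0.16 in R 4.3.3 (quasi-likelihood test, Benjamini-Hochberg adjustment over all genes tested, threshold 0.05). Sex and strain were tested in ~ Strain + Sex, and strain families in a fit per sex. The SE of a log2FC was taken from the log2FC and its F. Levels are TPM. Total counts per library had a median of 30233245, and 3 counts were taken as the floor, which covers counting error only. Scores are mean log2 CPM (prior count of 2) over marker lists, and permutation tests are two-sided with 100000 resamples. Python 3.11.15, limma 3.58.1 and DESeq2 1.42.0 were also used, and the steps were tested on simulated data.

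Pairing comes from the labels' strain names, 1 female and 1 male each. Their deviations from the sex means correlated with a median of 0.55 (-0.31 to 0.80, 45 of 59 over 0.1), against -0.01 for other pairs. Nothing repeats a sex within a strain. The sex and strain tests therefore rest on what is left within strains after both terms. That remainder holds the spread between mice and any sex difference particular to a strain, which cannot be told apart. The family tests rest on the spread between strains, each with 1 mouse. No 2 libraries held identical values.

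The members and lists were chosen with earlier results of these data known. Named genes are the 15 with the highest median TPM, up to 6 called members per direction for sex, the 8 called members with the largest SD for strain, and members past the threshold in both sexes for family. Other members (the low genes beside hepatocyte markers, Cyp1a1 and other examples) were named after their values were seen. Alternatives were DESeq2, limma-voom, limma on log2(TPM + 1) and log2(TPM + 0.1), RLE and library totals, other filters, no strain term, fewer strains, and marker scores as covariates. The hepatocyte and lymphocyte scores, the relations to endothelial and macrophage scores and the strains left out for hepatocyte or muscle markers were chosen after seeing the data. The 31-base words were taken from each member's coding transcripts and looked for in all GENCODE M21 transcripts of other genes, pseudogenes included.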

Additional observations from a re-analysis of the deposited data

Results flagged for a closer look

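Among the 15 expressed members in the 9 AXB/BXA females, the highest or lowest library stood apart by Dixon's ratio in 3 of 15 groups. For normal values chance alone flags about 1 in 20, and whether these TPM values are normal was not tested. The 15 groups hold the same 9 libraries, and the flags of Cyp4f16 and Cyp4f18 are the same female. The number of flags therefore cannot be set against that rate. In the AXB12/PgnJ female, Cyp4f16 was at 26.99 TPM, with 17.4 TPM in the next and 10.5 TPM in the lowest library. The same female had Cyp4f18 at 30.4 TPM, with 14.96 and 2.02 TPM in the next and the lowest, and the highest lymphocyte marker sum of all libraries, 971 TPM. In the AXB19b/PgnJ female, Cyp2ab1 was at 3.14 TPM, with 1.52 TPM in the next and 0.413 TPM in the lowest.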

How the results depend on the processing

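The 5 members higher and 10 lower in females stayed within 1.5 times those counts except at these settings. Without a filter 80 members were tested, and 11 were higher. With at least 10 counts in every library 11 were tested, and 2 were higher and 5 lower. With the adipocyte score as a covariate 8 were higher and 1 lower, where 8285 of all 16765 genes were called. With the mammary score the counts were 0 and 0 (0 of 23 at an unadjusted p under 0.05, and 8 of all genes with edgeR). Of the 15 called members, 8 turned direction with the adipocyte score, Cyp2s1 (-0.077), Cyp2c70 (0.20), Cyp4v3 (0.0060), Cyp4b1 (0.033), Cyp2j6 (0.056), Cyp2j9 (0.094), Cyp2u1 (0.083) and Cyp2ab1 (0.010), none of which then passed. With the mammary score 11 turned, Cyp2s1 (-0.095), Cyp4x1 (-0.33), Cyp1b1 (-0.057), Cyp2c70 (0.12), Cyp4f39 (0.24), Cyp2r1 (0.042), Cyp4v3 (0.24), Cyp4b1 (0.14), Cyp2j6 (0.102), Cyp2j9 (0.19) and Cyp2ab1 (0.26), again without passing. Library totals in place of TMM moved the median log2FC of all genes from 0.01 to 0.12 and the share higher in females among called genes from 48.8% to 72.5%, with 7 members higher and 9 lower. That share was 65.04% with limma on log2(TPM + 1).

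Without the strain term (no replicate block), 4 were higher and 7 lower, and 11 of the 15 calls kept their direction and passed; Cyp2ab1, Cyp2c70, Cyp2r1 and Cyp4f13 did not. With all libraries and no such pairing, 4 were higher and 8 lower, and Cyp2u1 turned (0.0024, edgeR adjusted p = 0.989). Leaving out NZW/LacJ gave the same 15 calls.

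The strain test called 11 members with limma on log2(TPM + 1), 53 of 80 without a filter and 10 of 11 with at least 10 counts in every library, against 19 of 23. The family test in females called 0 with limma-voom and 0 on either log2(TPM) scale (7, 7 and 3 at an unadjusted p under 0.05), 22 of 79 without a filter, 5 with the adipocyte score, 8 without the libraries whose Y-linked genes go against the label and 3 without strains with hepatocyte or muscle markers, against 13. In males it called 0 with limma on log2(TPM + 1) and 0 on log2(TPM + 0.1) (3 and 4 unadjusted), 2 with library totals, 17 of 80 without a filter, 3 with the adipocyte score, 6 without AXB19a/PgnJ and AXB19b/PgnJ and 2 without strains with hepatocyte or muscle markers, against 1. The mean in place of the median put 23 members at 1 TPM or more, against 15. The filters change how many members are tested; for the other settings the cause was not tested.

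With 1 mouse per sex and strain, the spread between mice of a strain and sex was not measured. Low depth limits members under about 1 TPM, where 3 counts are the floor, and near-identical copies such as Cyp3a41a and Cyp3a41b share reads.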

Other observations

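P450 genes outside families 1 to 4 were read from a list of 19, of which 8 had a median of at least 1 TPM and 10 were tested between the sexes. Cyp46a1, the cholesterol 24-hydroxylase, had medians of 1.13 TPM in females and 0.491 TPM in males (log2FC 1.12 ± 0.11, edgeR adjusted p = 2.53e-13). Cyp39a1, an oxysterol hydroxylase, was at 6.32 and 3.29 TPM (0.92 ± 0.07, 1.77e-16), and Cyp7b1, another, at 1.15 and 0.832 TPM (0.37 ± 0.11, 0.00416). Cyp27a1, the sterol 27-hydroxylase, was lower in females at 34.3 and 39.1 TPM (-0.26 ± 0.06, edgeR adjusted p = 0.000508), as were Cyp20a1 (-0.25 ± 0.04) and Tbxas1, thromboxane synthase (-0.40 ± 0.11). Cyp11a1, Cyp26b1, Cyp51 and Ptgis did not pass. Cyp7a1, the rate-limiting enzyme of bile acid synthesis, had a median of 0.0415 TPM and a highest value of 19.3 TPM.

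Cyp2c55 was the only member besides Cyp1a1 to exceed 10 TPM outside the libraries with hepatocyte markers among the 58 untested genes, at 12.97 TPM in the BXD55/RwwJ male. Over 3 counts were found for it in 11 libraries.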
